A study of Mus musculus with 12 samples.

Results

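Sorted islet macrophages were compared with sorted islet endothelial cells in 6 of the 12 libraries of the series, 3 of each cell type, over all genes of the deposited table. The mice behind all 6 had the genotype RIP-rtTA; TetO-VEGF-A and had received doxycycline (Dox) for 1 week, a drug given to switch on the TetO-VEGF-A transgene through rtTA, which the rat insulin promoter (RIP) drives in beta cells. Islets were purified and dispersed, and fluorescence-activated sorting with antibodies against CD11b and CD31 gave the macrophage and the endothelial fraction. The other 6 libraries were whole islets, 3 from mice of the same genotype with no Dox and 3 after 1 week of Dox. Of these, the Dox islets serve below as the tissue of origin. Sorted cells without Dox are not among the samples used here, so every difference below is one between sorted fractions under VEGF-A induction. The part of dispersal and sorting in these differences was not tested. Background strain, age and sex of the mice, and whether a library came from 1 animal or from pooled animals, are stated in no source used here. The p-values therefore measure the spread between these libraries.

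Macrophages are phagocytes of blood origin or tissue residence that take up debris, sense microbial products, present antigen and secrete cytokines, and their development depends on the transcription factor PU.1 and on the receptor of colony stimulating factor 1. Endothelial cells line the vessels, are held together by VE-cadherin junctions, and answer VEGF-A through its receptors VEGFR1 and VEGFR2. Islet capillaries are dense and fenestrated, and they lay down the basement membrane on which beta cells rest. CD11b, the integrin chain encoded by Itgam, is carried by monocytes and macrophages and also by neutrophils, some dendritic cells and natural killer cells. CD31, encoded by Pecam1, is a junctional adhesion molecule of all endothelium and is found at lower level on platelets and many leukocytes.

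The values were signals normalized by the authors, on a linear scale with a floor of 1. They are not scaled to gene length, so a gene's level is compared between libraries, and a higher signal in 1 gene than in another is not read as more RNA. Signal served only to choose which genes are named and to form sums over gene lists. The summed signal of the 6 libraries ranged from 22130402 to 24082087, and 30.8 to 35.4% of table entries stood at the floor. Read totals are stated in no source used here. The spacing of the values differed between libraries, and macrophage replicate 3 had the coarsest. Log2 signals correlated across genes at 0.926 to 0.975 between macrophage libraries, at 0.969 to 0.985 between endothelial libraries and at 0.523 to 0.558 between the cell types, and genes are not independent replicates in these values. The first principal component held 89.6% of the variance and split the cell types. The second held 6.01% and set macrophage replicate 3 and endothelial replicate 3 on the same side, apart from the others.

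The genes of the sort antibodies were the first check of the labels. Itgam (7:135206154-135271674 of mm9) had signals of 11409, 11397 and 11460.2 in the macrophage libraries and 2.05, 7.53 and 12.4 in the endothelial libraries. Pecam1 (11:106515531-106611942) had signals of 772, 738 and 739.6 in the macrophage libraries and 57096, 64909 and 62196 in the endothelial libraries. Both genes separated the fractions with no overlap, in the direction of the antibody used. On the scale of log2(signal + 1), macrophages minus endothelial cells, the difference was 10.66 ± 0.49 (SE) for Itgam and -6.35 ± 0.09 for Pecam1, with limma adjusted p-values of 6.06e-07 and 1.65e-08. Macrophages still held Pecam1, at a mean 81.9-fold lower than that of endothelial cells.

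The DNA letters in front of genes that parted the cell types were examined in RefSeq promoter windows (build GRCm38.p6), 250 bases before to 50 after the start of each gene. The letters searched for were the purine-rich PU.1 site GAGGAAGT, read on both strands, because PU.1 is the factor that founds the myeloid lineage. Of 10678 tested genes with a window, 3.26% held these letters, against 9.87% of the 699 genes called higher in macrophages by 4 or more on the log2 scale and 2.54% of the 591 genes higher in endothelial cells by as much. Over all 27025 windows of the table the share was 3.28%. Among the identity and leading genes described below, 5 windows held the letters. They were those of Ctss, Pld4, Mmp12 and Tnip3 on the macrophage side and of Eng on the endothelial side. The windows with the match wholly before the start are shown here to let a reader see the site in its surroundings. The windows shown belong to 2 genes of the macrophage side, Mmp12, which encodes macrophage elastase, and Tnip3, an inhibitor of NF-kB signalling. The third is Eng of the endothelial side, the co-receptor endoglin. Each sequence is the 250 bases before the start, 5′ to 3′ on the plus strand, which is the strand of the gene, with the match in capitals (here in its reverse complement, ACTTCCTC).
Mmp12 (chr9:7344147-7344396): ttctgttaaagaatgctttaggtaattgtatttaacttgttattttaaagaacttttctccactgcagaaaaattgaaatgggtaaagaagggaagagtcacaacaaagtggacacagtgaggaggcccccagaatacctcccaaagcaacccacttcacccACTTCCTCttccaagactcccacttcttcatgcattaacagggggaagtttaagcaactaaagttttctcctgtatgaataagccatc
Tnip3 (chr6:65590148-65590397): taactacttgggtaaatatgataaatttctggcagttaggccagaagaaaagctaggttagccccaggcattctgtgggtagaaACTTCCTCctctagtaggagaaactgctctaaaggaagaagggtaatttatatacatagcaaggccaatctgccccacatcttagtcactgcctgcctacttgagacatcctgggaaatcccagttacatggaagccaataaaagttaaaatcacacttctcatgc
Eng (chr2:32646345-32646594): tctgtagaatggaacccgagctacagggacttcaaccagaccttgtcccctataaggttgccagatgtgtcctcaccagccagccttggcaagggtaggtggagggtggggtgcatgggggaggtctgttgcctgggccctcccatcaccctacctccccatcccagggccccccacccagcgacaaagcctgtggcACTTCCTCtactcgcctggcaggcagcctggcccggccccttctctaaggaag

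The match began 88 bases before the start in Mmp12, 166 in Tnip3 and 53 in Eng. The AP-1, interferon response and C/EBP motifs were also more frequent on the macrophage side than over all tested genes and less frequent on the endothelial side. The AP-1 letters TGANTCA stood in 11% of windows on the macrophage side, 4.74% on the endothelial side and 5.22% of all tested. The interferon response motif stood in 6.87, 2.37 and 3.21%, and the C/EBP letters TTGCNNAA in 14, 7.45 and 8.21%. The NF-kB motif was about as frequent on both sides, at 7.58 and 7.95% against 5.05% of all tested. The general ETS letters CAGGAAGT, which differ from the PU.1 letters in their first base, stood in 5.58% of windows on the macrophage side, 3.55% on the endothelial side and 3.45% of all tested. In the same order, the FOX letters TGTTTAC stood in 2.72, 2.2 and 2.59%, the SOX letters CATTGTT in 3.15, 2.54 and 1.98%, and the GATA letters AGATAAG in 4.43, 2.2 and 1.85%. Over all 27025 windows the shares were 7.93% for AP-1, 3.49% for interferon response, 10.8% for C/EBP and 4.35% for NF-kB. They were 3.38% for ETS, 3.55% for FOX, 3.87% for SOX and 3.07% for GATA. Apart from NF-kB and ETS, these all-window shares exceeded those of the tested genes. The sides differed in base composition, with a median GC content of 53.3% on the macrophage side, 61.7% on the endothelial side and 60.3% over all tested genes, and its part in these shares was not tested. A match is a run of letters, not a bound site.

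Over all genes, 13726 of 22711 passed the filter on low values (a signal of at least 15.5 in 3 of the 6 libraries). Of these, 8117 (59.1%) passed the limma test at an adjusted p of 0.05, 3798 (27.7%) higher in macrophages and 4319 (31.5%) higher in endothelial cells. The libraries of the 2 cell types did not overlap in 9130 genes (66.5%). The median log2 difference over all tested genes was -0.10. Large differences were common, with 936 genes higher in macrophages and 839 higher in endothelial cells by 4 or more on the log2 scale. At 8 or more the counts were 253 and 25. Since so many genes were called, a gene list is read below by its counts beside these shares. A gene on in only 1 cell type had to pass the filter through that cell type, so a count of calls among tested members is a description. In the sentences below, 2 signals set against each other are means ± SD over the 3 macrophage and the 3 endothelial libraries, in that order, and a log2 difference is macrophages minus endothelial cells, ± SE.

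Of the genes with the largest differences, Ms4a7, a tetraspanning protein of macrophages, had signals of 17841, 15284 and 15122 in the macrophage libraries and 1, 1.51 and 12.5 in the endothelial libraries. Fcgr2b, the inhibitory receptor for IgG, had signals of 17108, 18181 and 16979.5 in the macrophage libraries and 9.9, 1 and 15 in the endothelial libraries. Nlrp3, the sensor of the inflammasome that releases interleukin 1 beta, had signals of 39009.5, 42219 and 54157 in the macrophage libraries and 8.2, 15.1 and 46.9 in the endothelial libraries. In these 3 genes every macrophage library stood far above every endothelial library, which follows from the rule that chose them, since it required no overlap. Ccr2, the chemokine receptor that brings monocytes out of the bone marrow, had a log2 difference of 11.17 ± 0.50, and Pld4, a nuclease of endolysosomes, one of 11.05 ± 0.45. On the endothelial side, Hapln1, a link protein that holds hyaluronan to proteoglycans, had signals of 58.3, 93.5 and 169 in the macrophage libraries and 23809, 27860 and 32174 in the endothelial libraries. Igfbp3, a binding protein of insulin-like growth factors, had signals of 89.2, 11 and 42.3 in the macrophage libraries and 13034, 9889 and 7644 in the endothelial libraries. Slco2a1, the transporter that clears prostaglandins, had a log2 difference of -8.10 ± 0.47. Homeodomain and SOX factors were among the endothelial leaders, with log2 differences of -8.70 ± 0.87 for Lhx6, -8.28 ± 0.95 for Meox1 and -8.13 ± 0.55 for Sox7. Another 19 genes of high signal of the macrophage side were listed at the floor in all 3 endothelial libraries, so no fold is given. Among them, Il1rn, the interleukin 1 receptor antagonist, had macrophage signals of 2487, 3545 and 2826, and Trem2, a lipid-sensing receptor, of 2285, 1916 and 1253.

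All 20 macrophage identity genes were higher in macrophages (median log2 difference 10.19), and all 23 endothelial identity genes were higher in endothelial cells (median -7.27), against a median of -0.10 over all tested genes. Csf1r, the receptor of colony stimulating factor 1, had signals of 48022, 38752 and 41911 in the macrophage libraries and 27.6, 79.7 and 99.5 in the endothelial libraries. Emr1, which encodes the F4/80 antigen, had signals of 19302, 19019.5 and 23698 in the macrophage libraries and 6.15, 7.53 and 27.8 in the endothelial libraries. Cdh5, VE-cadherin, had signals of 272, 165 and 172 in the macrophage libraries and 37759, 39139 and 33523 in the endothelial libraries. None of these 3 genes overlapped between the fractions, and the means differed 623-fold in Csf1r, 1494-fold in Emr1 and 182-fold in Cdh5. The smallest differences of the lists were those of Mertk and Vwf. Mertk, a receptor for apoptotic cells, had signals of 9159, 8891 and 9515 in the macrophage libraries and 2676, 2784 and 3410.1 in the endothelial libraries, and its macrophage mean was only 3.11-fold higher. Vwf, von Willebrand factor, differed by -2.46 ± 0.19.

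**Figure D1:**
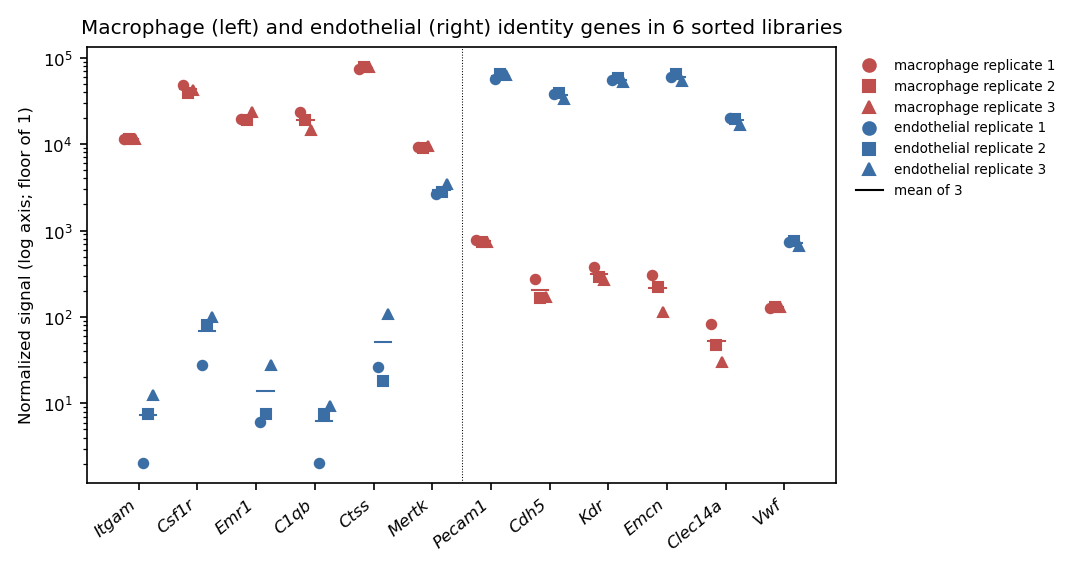
Normalized signal (vertical, log axis) of 6 macrophage identity genes and 6 endothelial identity genes in each of the 6 sorted libraries; symbols mark the replicate number, short lines the mean of 3. Macrophage points lie above all endothelial points in the left 6 genes and below them in the right 6, with the narrowest gaps at Mertk and Vwf.

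Markers of other cells were present in both fractions. The summed signals of acinar markers and of pericyte and smooth muscle markers moved with the replicate number. The summed signal of 12 acinar genes, digestive enzymes of the exocrine pancreas, was 29187, 441756 and 1505 in the macrophage libraries and 5825, 127840 and 291 in the endothelial libraries, in the order of replicates 1 to 3. Replicate 2 was the highest and replicate 3 the lowest in both fractions. The ratio of macrophage to endothelial sum was 5.01, 3.46 and 5.17 at the 3 replicate numbers. In the 3 Dox islet libraries the acinar sum was 160048, 102799 and 317498. The summed signal of 12 pericyte and smooth muscle genes was 4084, 4442 and 15393 in macrophages and 18685, 18594 and 67117 in endothelial cells, highest at replicate 3 in both. Most of each sum was the signal of Rgs5, given below, so these sums describe mainly that gene. In bulk libraries, fewer cells of a type and less RNA per cell cannot be told apart. The part of these cells in the results below was not tested.

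Of the 11 acinar genes tested, 0 passed limma, and 9 of 11 passed, all higher in macrophages, with the replicate number as a block. The list had a median log2 difference of 2.02. Cpb1, carboxypeptidase B, had signals of 6029, 113396 and 115 in the macrophage libraries and 1521, 39497 and 65.7 in the endothelial libraries, and its adjusted p was 0.685 without the block and 0.00103 with it. Of 12 pericyte and smooth muscle genes, 7 were higher in endothelial cells and 5 were not called (median -1.66). That count was 11 with the replicate block, 11 without macrophage replicate 3 and 4 without endothelial replicate 3. It was 2 with no filter on low values, 3 of 7 with a stricter one, 1 with a required log2 difference of 1, and 4 and 3 without replicate 1 or 2 in both groups. Rgs5, a pericyte gene, had signals of 3051, 3498 and 12399 in the macrophage libraries and 15000.1, 15427 and 57986 in the endothelial libraries, and its call was lost without macrophage replicate 1 or 2 or endothelial replicate 3 (limma adjusted p 0.0516 to 0.075). Beta cell genes stood higher in macrophages in 9 of 10 tested, and other endocrine genes in 7 of 8. Ins2, insulin, had signals of 2106, 1038 and 1094 in the macrophage libraries and 182, 161 and 149 in the endothelial libraries, and Gcg, glucagon, of 3091, 1227 and 11441 in the macrophage libraries and 282, 92.4 and 767 in the endothelial libraries. Both fractions stayed far below the whole islets, where the 12 beta cell genes summed to 201823, 261136 and 239784 against 7618, 3841 and 3636 in macrophages and 676, 608 and 574 in endothelial cells.

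Among blood cells, 8 of 10 tested neutrophil genes were higher in macrophages. Csf3r, the receptor of granulocyte colony stimulating factor, had signals of 2923, 2155 and 3001 in the macrophage libraries and 4.1, 1 and 3.06 in the endothelial libraries. S100a9, an abundant neutrophil protein, was listed at the floor in every endothelial library and at 508, 582 and 173 in macrophages. Ly6g, the gene of the antigen that defines mouse neutrophils, stayed at 1.21 ± 0.367 in macrophages and below the filter. Of T, NK and B cell genes, 4 of 12 passed the filter, and 3 of these were higher in macrophages (median 4.57). They were Cd4, a co-receptor of T cells (887 ± 287 against 10.7 ± 12.7), Cd79b, a chain of the B cell receptor (247 ± 57.6 against 2.58 ± 1.41), and Ncr1, a receptor of NK cells (89.7 ± 106 against 6.3 ± 2.36). The call of Ncr1 was lost without endothelial replicate 1 (limma adjusted p 0.0583). The 12 genes summed to 1099, 1119.6 and 2091 in the macrophage libraries and 58.2, 50.4 and 90.2 in the endothelial libraries, and the part of lymphocytes in the results was not tested. Cd3e, Cd3d and Cd3g, chains of the T cell receptor complex, had macrophage means of 6.92, 6.7 and 7.26 and stayed below the filter. Pf4, platelet factor 4, which macrophages also make, was 2534 ± 626 in macrophages and 3.27 ± 2.6 in endothelial cells, while Itga2b, the platelet integrin, did not pass the test (51.4 ± 14.4 against 47.4 ± 10.2). Of the dendritic cell genes, 8 of 10 were higher in macrophages, among them Itgax (CD11c) at 9169 ± 2484 against 4.96 ± 1.14 and Flt3 at 1742 ± 237 against 3.36 ± 0.503. The other two went the opposite way. Zbtb46, a factor of classical dendritic cells and of endothelium, had signals of 1356, 1833 and 1999.9 in the macrophage libraries and 7095, 7496 and 6779 in the endothelial libraries. Clec9a had 562, 507 and 681 in the macrophage libraries and 2767, 2939.8 and 3069.5 in the endothelial libraries, and its gene model overlaps those of Clec1a and Clec1b, so its reads cannot be assigned to it with certainty. Lymphatic genes were mostly endothelial (4 of 5 tested), with Flt4, the receptor VEGFR3, at 44.4 ± 4.72 against 7533 ± 518 and Prox1, the factor that sets lymphatic identity, at 129 ± 27.5 against 797 ± 94.1, while Lyve1 was higher in macrophages (379.6 ± 157 against 132 ± 32.5), a call lost without macrophage replicate 1 (limma adjusted p 0.052).

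**Figure D2:**
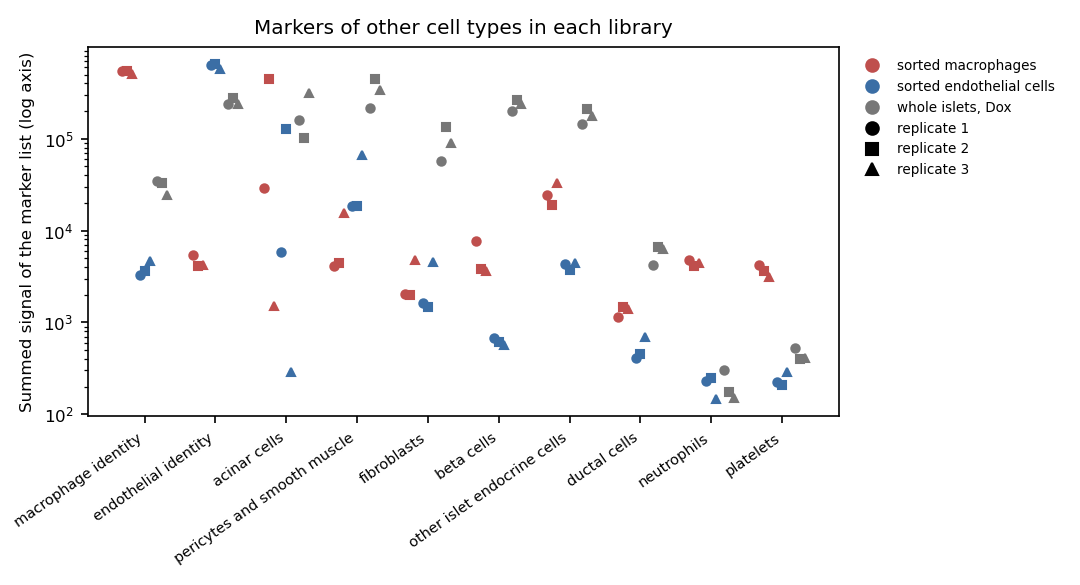
Summed normalized signal (vertical, log axis) of each marker list (horizontal) in the 3 sorted macrophage, 3 sorted endothelial and 3 Dox islet libraries; symbol shape marks the replicate number. Acinar sums run from 1505 to 441756 in macrophages and from 291 to 127840 in endothelial cells in the same order of replicate numbers, whereas the identity sums of each fraction hardly vary.

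The sensing apparatus of innate immunity was on the macrophage side. Of 25 pattern recognition and inflammasome genes, 23 were higher in macrophages (median 5.20). Clec4n, which encodes the fungal receptor dectin 2, had signals of 10297, 9208 and 8121 in the macrophage libraries and 1, 1.51 and 3.13 in the endothelial libraries, and Tlr8, a receptor for RNA, of 12034, 12816 and 13409 in the macrophage libraries and 2.05, 1 and 21.9 in the endothelial libraries. Tlr3, the receptor for double-stranded RNA, was the exception. It had signals of 1264, 1286 and 1317 in the macrophage libraries and 2727, 3399 and 2729.8 in the endothelial libraries, a log2 difference of -1.19 ± 0.12 with an adjusted p of 5.76e-05 in limma. Nod1, a sensor of bacterial cell walls, was not called (1622 ± 171 against 1353 ± 45.2). All 21 Fc receptor, TREM and ITAM adaptor genes were higher in macrophages (median 9.52), led by Tyrobp, the adaptor DAP12, at 11.86 ± 0.32, and 3 of them, with Trem2 among them, were at the floor in all endothelial libraries. Lilrb4, an inhibitory receptor, differed by 10.85 ± 0.25, and Fcgr3, an activating IgG receptor, by 10.72 ± 0.73.

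Chemokines and cytokines followed. Of 22 chemokine ligands tested, 19 were higher in macrophages and 2 in endothelial cells (median 8.24). Ccl4, which attracts leukocytes, had signals of 25088, 27179 and 29628 in the macrophage libraries and 6.15, 9.03 and 1 in the endothelial libraries, and Ccl9 and Ccl3 differed by 11.31 ± 0.46 and 10.61 ± 0.33. The endothelial exceptions were Cxcl12, which retains leukocytes that carry Cxcr4, at 49.4 ± 52.7 against 890.3 ± 124 and the membrane-bound Cx3cl1, fractalkine, at 48.8 ± 21.3 against 524 ± 21.5. Cxcl13, which attracts B cells, was not called (274 ± 50.8 against 234 ± 20.2). Of 15 chemokine receptors, 12 were higher in macrophages. The endothelial 3 were all atypical receptors that bind chemokines without G protein signalling. Cxcr7 stood at 38.5 ± 9.72 against 2400.1 ± 103, Ccbp2 at 1.57 ± 0.979 against 100 ± 18.9 and Darc at 9.09 ± 8.46 against 48.6 ± 28.6. The call of Darc was lost without endothelial replicate 1 or 2 (limma adjusted p 0.058 to 0.0988), and its log2 difference was -2.66 ± 0.84 over all libraries and -1.75 without macrophage replicate 3.

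Among 19 tested inflammatory cytokine genes, 16 were higher in macrophages (median 7.03). Tnf, tumour necrosis factor, had signals of 8544, 10216 and 9153 in the macrophage libraries and 6.15, 1 and 1 in the endothelial libraries, and Ifnb1, interferon beta, of 1895, 2997 and 3497 in the macrophage libraries and 6.05, 1 and 1 in the endothelial libraries. The endothelial exceptions were Tnfsf10, which encodes the death ligand TRAIL, with signals of 293, 259.9 and 287 in the macrophage libraries and 14493, 13762 and 13255 in the endothelial libraries, and Il34, a second ligand of the Csf1 receptor (54.9 ± 27.2 against 227 ± 65.8). Csf1 itself did not pass the test, with signals of 324, 469.7 and 956 in the macrophage libraries and 412, 545 and 503 in the endothelial libraries, so the ligand was present in both fractions while its receptor was a macrophage gene. Il12a, Il23a, Il33, Csf2, Csf3 and Tnfsf14 stayed below the filter.

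Antigen presentation genes of both classes were mostly higher in macrophages, with larger differences in class II. All 16 genes of MHC class II and costimulation were higher in macrophages (median 8.72). H2-Eb1, a class II chain, had signals of 53136, 46397 and 42287 in the macrophage libraries and 69.5, 53.8 and 26.6 in the endothelial libraries, and Cd86, a costimulatory ligand, of 60337, 59133 and 79637 in the macrophage libraries and 30.7, 24.8 and 71.5 in the endothelial libraries. H2-Aa and H2-Ab1 overlap in their gene models, and share reads to that extent. The class I genes were on in both fractions. Of 13 tested, 11 were higher in macrophages, by a median of 0.99. H2-K1, a class I heavy chain with near-identical relatives, stood at 39392 ± 2379.6 against 11103 ± 1819, and Tap2 (354 ± 46.8 against 371 ± 42.9) and Erap1 (2236 ± 227 against 2649.8 ± 88.2) were not called.

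Complement genes were divided between the fractions. The C1q chains, the anaphylatoxin receptors and C3 were macrophage genes (11 of 18 tested in all). C1qb had signals of 23424, 19097 and 14680.4 in the macrophage libraries and 2.05, 7.53 and 9.38 in the endothelial libraries, C1qc of 18555, 15296 and 14592 in the macrophage libraries and 4.1, 3.01 and 25 in the endothelial libraries, and C5ar1, the receptor of the fragment C5a, of 8151, 7423 and 8341 in the macrophage libraries and 2.05, 4.52 and 37.5 in the endothelial libraries. The 5 genes higher in endothelial cells were Cd59a (28.1 ± 13.7 against 425 ± 34.3), Cd46 (322 ± 67 against 772 ± 17.7) and Cr1l (1191 ± 326 against 1916 ± 184), which hold complement off the cell surface, Serping1, the C1 inhibitor (264 ± 97.2 against 847 ± 449.5), and C1s (149 ± 81.7 against 579.7 ± 459). The call of C1s was lost without macrophage replicate 1 or 2 or endothelial replicate 3 (limma adjusted p 0.0657 to 0.0895), and that of Cr1l without endothelial replicate 1 or 2 (limma adjusted p 0.0573 to 0.0679). Cd55 (239.6 ± 72.2 against 328 ± 46.4) and C1ra (55.1 ± 14.2 against 40.6 ± 18.8) were not called.

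Degradation and uptake genes leaned to macrophages with smaller differences. Of 22 lysosomal genes, 20 were higher in macrophages (median 3.09). Ctss, cathepsin S, had signals of 74335, 77803 and 78355 in the macrophage libraries and 26.5, 18 and 109 in the endothelial libraries, and Ctsc, cathepsin C, of 49086, 49662 and 43666 in the macrophage libraries and 149, 117 and 168 in the endothelial libraries. Ctsl, cathepsin L, was the endothelial exception at 2832 ± 241 against 4421 ± 181, and Ctsk did not pass the test (128 ± 55.1 against 117 ± 9.59). The phagocyte oxidase was macrophage in 6 of 8 tested genes, with its catalytic chain Cybb at 60142, 64112 and 69161 in the macrophage libraries and 9.22, 12 and 48.5 in the endothelial libraries. Its relative Nox4, which makes hydrogen peroxide in vessel walls, was endothelial at 39.8 ± 28.5 against 683 ± 113. Nox1 did not pass the test (23.9 ± 14.5 against 22 ± 4.37).

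Genes of alternative activation were also macrophage genes, 13 of 14 tested (median 4.77). Mrc1, the mannose receptor CD206, had signals of 38535, 38084 and 38521 in the macrophage libraries and 16.4, 17.3 and 77.4 in the endothelial libraries, and Cd163, the hemoglobin scavenger receptor, of 3948, 2739 and 4228 in the macrophage libraries and 25.8, 7.1 and 58.3 in the endothelial libraries. Arg1, arginase 1, was the member that did not pass, at 296, 242 and 468 in the macrophage libraries and 173, 186 and 246 in the endothelial libraries (adjusted p 0.0827 in limma, and 0.0353 with the replicate block). The inducible synthase that competes with it for arginine, Nos2, was on the endothelial side, with signals of 42.1, 17.9 and 51 in the macrophage libraries and 1372, 1299 and 1314 in the endothelial libraries, a log2 difference of -5.25 ± 0.39 and an adjusted p of 8.67e-06 in limma. Whole Dox islets had a Nos2 mean of 514 ± 287.

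Scavenger receptors were mixed, 14 of 20 tested higher in macrophages and 3 in endothelial cells. Axl, a receptor for apoptotic cells, differed by 6.23 ± 0.46, and Msr1 by 9.78 ± 0.28. The endothelial 3 were Mfge8, the bridge between apoptotic cells and integrins (174 ± 33.9 against 2713 ± 398), Scarf1 (124 ± 57.6 against 881 ± 149.6) and Scarb1, the receptor of high density lipoprotein (1070.1 ± 174 against 6503 ± 1202). Gas6, the ligand of Axl and Mertk, was not called without the block (1482 ± 472 against 2046 ± 254, adjusted p 0.0869 in limma, 0.0371 with the block). All 13 tested iron and heme genes were higher in macrophages (median 4.02), among them Slc11a1, the iron transporter of phagosomes, at 9.67 ± 0.26, Cd163 and Hmox1, heme oxygenase 1, at 5.65 ± 0.16.

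Of 16 tested lipid handling genes, 10 were higher in macrophages and 4 in endothelial cells (median 2.03). Apoe, apolipoprotein E, had signals of 44737, 27066 and 26889.5 in the macrophage libraries and 64.6, 57.4 and 68 in the endothelial libraries, and Lpl, lipoprotein lipase, of 7664, 9279 and 5125 in the macrophage libraries and 141, 188 and 313 in the endothelial libraries. Gpihbp1, which anchors that lipase on capillaries, went the other way at 11.9 ± 8.08 against 969 ± 239.7, as did the fatty acid binding proteins Fabp4 (61.1 ± 37.1 against 9663 ± 1704) and Fabp5 (147 ± 38.3 against 309 ± 39.4). The enzyme and its anchor were thus higher in different fractions. Abcg1 and Vldlr were not called. For eicosanoids, 10 of 14 tested genes were higher in macrophages. Ptgs2, the inducible cyclooxygenase, had signals of 8745, 11418 and 9409 in the macrophage libraries and 6.15, 13.5 and 9.38 in the endothelial libraries, and Alox5ap, the activator of 5-lipoxygenase, of 4819.7, 4976 and 4069 in the macrophage libraries and 2.05, 1.51 and 3.06 in the endothelial libraries. Ptgis, which makes prostacyclin, was the 1 endothelial gene (2.79 ± 1.98 against 176 ± 31.9), and Ptgs1 (4044 ± 219 against 3185 ± 553), Lta4h (1283 ± 163 against 1368 ± 111) and Ptgir (50.2 ± 22.7 against 24 ± 21.4) were not called.

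**Figure D3:**
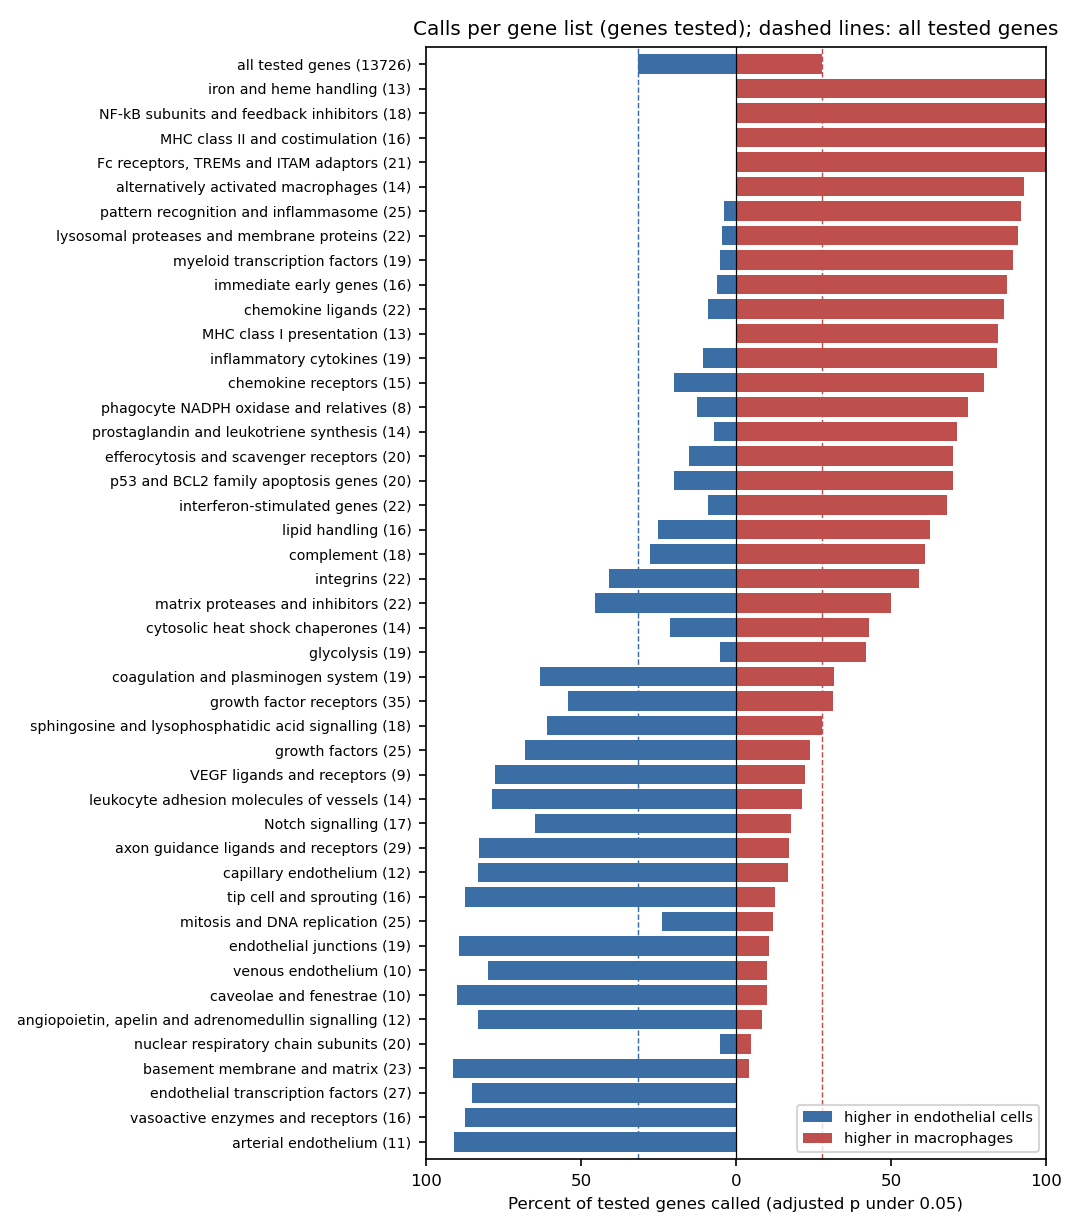
Percent of tested genes called higher in macrophages (right) or in endothelial cells (left) for each functional gene list, with the number of genes tested in brackets; the top bar and dashed lines give all tested genes. The lists run from 100% macrophage (iron and heme handling, NF-kB, MHC class II, Fc receptors) to mostly endothelial with no macrophage gene (arterial genes, vasoactive genes, endothelial transcription factors).

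Transcription factors parted along lineage lines. Of 19 tested myeloid factors, 17 were higher in macrophages (median 4.58). Sfpi1, which encodes PU.1, had signals of 3097, 2374 and 2866 in the macrophage libraries and 1, 1.51 and 1 in the endothelial libraries, Irf5 of 2885, 2602 and 2260.1 in the macrophage libraries and 12.8, 17 and 12.1 in the endothelial libraries and Cebpa of 3977, 2662 and 1873 in the macrophage libraries and 22.5, 7.53 and 28.1 in the endothelial libraries. Klf4 was the 1 endothelial gene of that list (4241 ± 252 against 6319 ± 544) and Pparg was not called (846 ± 174 against 654 ± 79.3). Of 27 tested endothelial factors, 23 were higher in endothelial cells and 0 in macrophages (median -4.10). Erg, an ETS factor of endothelium, had signals of 85.4, 59.1 and 78.2 in the macrophage libraries and 8803, 9516 and 10294 in the endothelial libraries, and Sox7, Meox1 and Lhx6 led the list with the differences given above. Gata2, a factor of blood and endothelium, differed by -7.33 ± 0.32. The 4 that were not called were Fli1, Hhex, Lmo2 and Heyl. Fli1, an ETS factor of blood and vessels, had signals of 4337, 3927 and 5039 in the macrophage libraries and 3925, 4335 and 4908 in the endothelial libraries. Hhex had means of 1557 ± 456 against 1497 ± 157 and Lmo2 of 2577 ± 391 against 3183 ± 331, and the 95% interval of the log2 difference ran from -0.28 to 0.31 for Fli1 and from -0.48 to 0.52 for Hhex.

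The VEGF system, which the transgene acts on, was endothelial in its receptors. Kdr, VEGFR2, had signals of 373, 288 and 270.2 in the macrophage libraries and 54788, 57911 and 52372 in the endothelial libraries, and Flt1, VEGFR1, of 660.5, 501 and 524 in the macrophage libraries and 97215, 99726 and 79014 in the endothelial libraries. The co-receptor Nrp1 was present in macrophages at 6962 ± 274 and in endothelial cells at 61884 ± 4275. Of the ligands, Vegfa (216 ± 5.04 against 59.8 ± 15.5) and Vegfb (242 ± 47.8 against 60.9 ± 9.85) were higher in macrophages, and Vegfc (34.8 ± 17.3 against 877 ± 99.2) and Figf, which encodes VEGF-D (26 ± 10.7 against 129 ± 16), in endothelial cells. Whether reads of the transgene are counted under Vegfa is not given in the sources used here, and whole Dox islets had a Vegfa mean of 2027 ± 422. In total 7 of 9 tested genes were higher in endothelial cells. Angiopoietin, apelin and adrenomedullin genes were endothelial in 10 of 12 (median -4.08). Aplnr, the apelin receptor, had signals of 134, 90.8 and 72.5 in the macrophage libraries and 16656, 16859 and 13789 in the endothelial libraries and Tek, the angiopoietin receptor TIE2, of 108, 44.5 and 127 in the macrophage libraries and 12741, 14061 and 13248 in the endothelial libraries. Angptl4 was higher in macrophages (294 ± 120.3 against 93.1 ± 24.6) and Angptl2 was not called.

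Notch ligands were endothelial, and the receptors differed. Dll4, the ligand of tip cells and arteries, had signals of 60.5, 33 and 53.6 in the macrophage libraries and 6468, 5763 and 7118 in the endothelial libraries, and Dll1 of 31.9, 15.1 and 1 in the macrophage libraries and 1306, 1121 and 935 in the endothelial libraries. Of the receptors, Notch4 (91.6 ± 59.4 against 5235 ± 547) and Notch1 (1136 ± 241 against 5500.5 ± 121) were higher in endothelial cells. Notch2 was the macrophage receptor, with signals of 11053, 10614 and 13678 in the macrophage libraries and 283, 312 and 455 in the endothelial libraries. The nuclear effector Rbpj (7030.1 ± 337 against 1205 ± 51.6) and the modifier Lfng (842 ± 224 against 389.8 ± 94.2) were also higher in macrophages, so 3 of 17 genes lay on that side and 11 on the endothelial one.

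Genes of all vessel segments were present in the endothelial fraction. Of arterial genes 10 of 11 tested were higher there, of venous genes 8 of 10, of capillary genes 10 of 12 and of tip cell genes 14 of 16. Sema3g, an arterial semaphorin, had signals of 11.5, 1 and 1 in the macrophage libraries and 1344, 1242 and 1305 in the endothelial libraries. Ephb4, the venous receptor of ephrin B2, had signals of 51.7, 9.46 and 78.6 in the macrophage libraries and 4452, 3431 and 3379 in the endothelial libraries. Plvap, which forms the diaphragms of fenestrae, had signals of 117, 44 and 24.2 in the macrophage libraries and 13619, 12224 and 8946 in the endothelial libraries. Esm1, a product of VEGF-stimulated tip cells, had signals of 401, 248 and 275 in the macrophage libraries and 53593, 48241 and 50480.3 in the endothelial libraries. In each of these 4 genes the fractions stood apart with no overlap, by log2 differences of -8.46 ± 0.70, -6.72 ± 0.67, -7.80 ± 0.50 and -7.39 ± 0.17. The macrophage exceptions in these lists were Vcam1, Lpl, Cd36 (9521 ± 726 against 2152 ± 251), Plaur, the receptor of urokinase (4809 ± 918 against 504 ± 71.8), and Cxcr4 (4046 ± 109 against 2229 ± 97.1). Lrg1 (21.6 ± 18.1 against 55.5 ± 35.9) and Bmx (17.6 ± 13 against 38.2 ± 10.6) were not called.

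Junction genes were endothelial in 17 of 19 tested (median -5.59). Jam2 differed by -7.08 ± 0.16 and Tjp1, which encodes ZO-1, by -6.57 ± 0.16. The 2 macrophage exceptions were both tight junction proteins with a MARVEL domain. Marveld2, tricellulin, had signals of 1989.5, 3310.1 and 2512 in the macrophage libraries and 345, 508 and 378 in the endothelial libraries, and Ocln, occludin, of 48, 98.7 and 46.7 in the macrophage libraries and 4.41, 2.89 and 4.69 in the endothelial libraries. Caveolar genes were endothelial in 9 of 10 tested, with Cav1, caveolin 1, at 212, 151 and 257 in the macrophage libraries and 22939, 26801 and 23838 in the endothelial libraries, and Pacsin2 higher in macrophages (3595 ± 634 against 1305 ± 182). Of 16 vasoactive genes, 14 were higher in endothelial cells and 0 in macrophages. Nos3, the endothelial nitric oxide synthase, had signals of 15.9, 1 and 13.8 in the macrophage libraries and 1472, 1393 and 1158 in the endothelial libraries, and Ednrb, the endothelin B receptor, of 265, 216 and 414 in the macrophage libraries and 30525, 31310.5 and 28690.4 in the endothelial libraries. Ddah1 (1105 ± 432 against 1314 ± 69.3) was not called.

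Adhesion molecules by which vessels catch leukocytes were endothelial in 11 of 14 tested, with the selectins Sele (21 ± 8.97 against 205 ± 64.7) and Selp (11.3 ± 8.07 against 163 ± 27.3) and the addressin Madcam1 (2.85 ± 3.21 against 405 ± 97.6). The 3 others were higher in macrophages. Vcam1 had signals of 16110.3, 15953 and 19241 in the macrophage libraries and 183, 289 and 201 in the endothelial libraries, Alcam of 7201, 8233 and 7642 in the macrophage libraries and 118, 189 and 196 in the endothelial libraries and Icam1 of 2528, 2735 and 3076 in the macrophage libraries and 322, 304 and 241 in the endothelial libraries. Integrins divided 13 to 9. The beta 2 family was macrophage, with Itgb2 at 8233 ± 390.2 against 12.4 ± 15.6 and Itgal at 5402 ± 85.1 against 19.7 ± 19.6, as was Itga4, the partner of Vcam1, at 22049 ± 2983 against 354 ± 79.9. Endothelial cells were higher in Itga1 (509.6 ± 196 against 19757 ± 2353) and Itga2 (66.2 ± 18.5 against 1839 ± 150.4), which make collagen receptors, in Itga3 (33.7 ± 9.3 against 2536 ± 209.5), which makes a laminin receptor, and in Itgb3 (186 ± 61.4 against 5007 ± 769), a chain of the vitronectin receptor.

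Basement membrane and matrix genes were endothelial in 21 of 23 tested (median -6.45). Hspg2, perlecan, had signals of 563, 223 and 295 in the macrophage libraries and 66895, 57759 and 64919.8 in the endothelial libraries, and Lama3, a laminin chain, of 104, 90.8 and 181 in the macrophage libraries and 18547, 20541 and 18374 in the endothelial libraries. Lamb1 differed by -7.15 ± 0.13 and Lama4 by -6.94 ± 0.11. Col4a1 and Col4a2, the main collagen IV chains, overlap in their models and are not separated here. Fn1, fibronectin, was the macrophage exception at 1745, 2138 and 1962 in the macrophage libraries and 458, 472 and 596 in the endothelial libraries, and Bgn was not called without the block (adjusted p 0.398 in limma, 0.00656 with the block). The enzymes that cut matrix were mixed, 11 of 22 tested macrophage and 10 endothelial. Mmp13, a collagenase, had signals of 17292, 15613 and 11422 in the macrophage libraries and 6.15, 3.01 and 12.5 in the endothelial libraries. Mmp12 had 13772, 10927 and 6817 in the macrophage libraries and 1, 3.01 and 3.13 in the endothelial libraries, with a model that overlaps that of Mmp1b. On the endothelial side were Timp3, an inhibitor that binds matrix (747 ± 273 against 72101 ± 5991), Mmp15 (21.2 ± 2.63 against 2068 ± 162) and the ADAMTS proteases Adamts1 (459 ± 139 against 34292 ± 3727) and Adamts9 (242 ± 91.1 against 15953 ± 1351). Mmp19 was not called.

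In coagulation, 12 of 19 tested genes were endothelial. The thrombin receptors F2r (286 ± 40.4 against 20581 ± 3427) and F2rl3 (142 ± 21.9 against 13255 ± 859) and the inhibitor Tfpi2 (2.89 ± 2.75 against 126 ± 50.6) led, with Plat, tissue plasminogen activator, at 287 ± 179.9 against 6198 ± 977. The macrophage side held F13a1, the transglutaminase that crosslinks fibrin, at 5519.8, 4606 and 6716 in the macrophage libraries and 8.2, 10.3 and 32.4 in the endothelial libraries, and Plau, urokinase (2236 ± 239 against 225 ± 8.87). So the 2 plasminogen activators were split between the fractions. F3, tissue factor, was not called (36.7 ± 26.7 against 30 ± 2.29).

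Growth factors were mainly endothelial (17 of 25 tested, median -3.70). Fgf1 had signals of 42.9, 46.8 and 48.4 in the macrophage libraries and 9088, 10293 and 10098 in the endothelial libraries, and Inhbb, an activin chain, of 1.64, 1 and 1 in the macrophage libraries and 714, 618 and 747 in the endothelial libraries. Nov and Egfl7 differed by -8.00 ± 0.69 and -7.07 ± 0.35. Macrophages were higher in Hgf (1669 ± 92 against 20.3 ± 14.1), Gdf15 (912 ± 102 against 19.5 ± 21.9), Pdgfc (1393 ± 451 against 69 ± 4.41), Tgfb3 (321 ± 87.8 against 114 ± 48.8), Tgfb1 (2935 ± 261 against 1860.3 ± 329) and Areg, which was at the floor in all endothelial libraries. Igf1 was present in both at means that differed little, with signals of 8942, 8814 and 9194 in the macrophage libraries and 7557, 9779.7 and 10165 in the endothelial libraries and a 95% interval of the log2 difference from -0.30 to 0.27. Bmp2 was not called. Of 35 receptors, 19 were higher in endothelial cells and 11 in macrophages. Osmr, the oncostatin M receptor, had signals of 155, 82.9 and 233 in the macrophage libraries and 13515, 15957 and 13682 in the endothelial libraries, and Il10ra, the interleukin 10 receptor, of 9062, 8235 and 7471 in the macrophage libraries and 1, 10.5 and 18.8 in the endothelial libraries. Erbb2 differed by -5.51 ± 0.49, Fgfr3 by -5.29 ± 0.33, and on the macrophage side Il1r2, the decoy receptor of interleukin 1, by 8.95 ± 0.31.

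Guidance genes were endothelial in 24 of 29 tested (median -4.32). Robo4, a receptor of vessels, had signals of 135, 89.3 and 151 in the macrophage libraries and 25360.4, 25966 and 23273 in the endothelial libraries, and Efna1 differed by -7.30 ± 0.30. The 5 on the macrophage side were the class 4 semaphorins Sema4d (8454 ± 1540.2 against 28.9 ± 9.46) and Sema4a (2182 ± 118 against 56.6 ± 17.7) and the plexins Plxnc1 (8539 ± 870.3 against 225 ± 25.2), Plxnb2 (6262 ± 729 against 1951 ± 122) and Plxna1 (2156 ± 448 against 839 ± 121). Lysophospholipid genes were endothelial in 11 of 18. Lpar4, a receptor of lysophosphatidic acid, was 1.21 ± 0.367 in macrophages and 891 ± 60.4 in endothelial cells, and the lipid phosphatases Ppap2a and Ppap2b differed by -7.15 ± 0.23 and -7.03 ± 0.19. Macrophages were higher in Lpar5 (829 ± 107 against 1.67 ± 1.16), Lpar1, Sgpl1, S1pr2 and Sgpp1.

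Programmes that most cells can switch on differed as well. All 18 NF-kB subunits and feedback inhibitors were higher in macrophages (median 2.84). Tnfaip3, which encodes A20, had signals of 93319.9, 108682 and 133848 in the macrophage libraries and 3235, 3803 and 3986 in the endothelial libraries, and Tnip3 of 13352, 14575 and 12792 in the macrophage libraries and 1, 6.76 and 5.97 in the endothelial libraries. Of 16 immediate early genes, 14 were higher in macrophages (median 1.94). Egr2 differed by 4.74 ± 0.16, and Atf3 had signals of 41488, 46002 and 49851 in the macrophage libraries and 3298, 4196 and 4178 in the endothelial libraries. Immediate early genes are those that cells transcribe within minutes of a stimulus, before new protein is made. The 16 genes summed to 337753, 377594 and 396572 in macrophages and 96438, 102578 and 103343 in endothelial cells. In the Dox islets they summed to 70670, 63339 and 51007. The part of dispersal and sorting in the immediate early and NF-kB differences was not tested. Fosl1 was the endothelial exception (2.91 ± 1.67 against 46.1 ± 9.21) and Fosl2 was not called (13997 ± 845 against 12831 ± 397).

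Of 22 interferon-stimulated genes, 15 were higher in macrophages, 2 in endothelial cells and 5 were not called. Oas2 had signals of 3368, 3437 and 2776 in the macrophage libraries and 4.1, 15.1 and 12.5 in the endothelial libraries and Mx1 of 2243, 3117 and 3599.5 in the macrophage libraries and 21.9, 24.2 and 42.7 in the endothelial libraries. The endothelial pair was Ifi44 (497, 566 and 435 in the macrophage libraries and 3047, 3606 and 3542 in the endothelial libraries) and Cmpk2 (561 ± 61.6 against 2059.8 ± 92.9). Rsad2, an antiviral enzyme whose gene neighbours Cmpk2, did not pass the test (8863 ± 4261 against 6701 ± 881), nor did Stat2, Irf9, Usp18 and Bst2. Of the 22 genes, 20 had a log2 difference above 0, and the called genes of the list went in both directions.

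Genes of cell division and of the respiratory chain had small median differences, and glycolysis genes were mixed. A gene that was not called is not thereby equal in the fractions. Of 25 genes of mitosis and DNA replication, 16 were not called (median -0.16). The libraries did not overlap in 6 with macrophages above and in 9 with endothelial cells above. Over all tested genes these shares were 30.7 and 35.8%. Mki67, the proliferation antigen Ki-67, had signals of 11338, 14809 and 10342 in the macrophage libraries and 12076, 12488 and 13478 in the endothelial libraries and a 95% interval of the log2 difference from -0.39 to 0.24. Top2a, topoisomerase II, had signals of 6737, 8109.9 and 4954 in the macrophage libraries and 7436, 7227 and 7098 in the endothelial libraries. The 6 higher in endothelial cells included Cdc20 (54.2 ± 17.8 against 169 ± 50.2) and Cenpf (1264 ± 221 against 2877 ± 87.2), and the 3 in macrophages were the replication genes Mcm5 (852 ± 281 against 424 ± 138), Pcna (4677 ± 211 against 2481 ± 153) and Mcm3 (1368 ± 164 against 934 ± 79.7). The call of Mcm5 was lost without macrophage replicate 1 or 2 or endothelial replicate 2 or 3 (limma adjusted p 0.0871 to 0.1). Of 20 respiratory chain subunits, 18 were not called (median 0.05), with Cox4i1 higher in macrophages (1308 ± 711 against 602 ± 207) and Ndufs1 in endothelial cells (912 ± 78 against 1201 ± 91.1). The call of Cox4i1 was lost without macrophage replicate 1 or endothelial replicate 2 or 3 (limma adjusted p 0.105 to 0.14) and that of Ndufs1 without macrophage replicate 1 or endothelial replicate 1 or 2 or 3 (limma adjusted p 0.0521 to 0.119). Without macrophage replicate 3, 7 of the 20 were higher in macrophages. Glycolysis was uneven at its first step. Hk2, an inducible hexokinase, had signals of 4441, 4482 and 5549 in the macrophage libraries and 25.6, 17.6 and 57.9 in the endothelial libraries, Hk3 was higher in macrophages too (2592 ± 784 against 52.1 ± 8.01) and Hk1 was the endothelial isoform (501 ± 96.9 against 1507 ± 110.4). Of the 19 glycolysis genes 8 were higher in macrophages and 1 in endothelial cells. The other 10 were not called, among them Slc2a1, the glucose transporter GLUT1 (1434 ± 54.3 against 1281 ± 148).

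Of 14 chaperones, 6 were higher in macrophages and 3 in endothelial cells. The endothelial 3 were the small heat shock proteins Hspb1 (51.9 ± 20 against 777 ± 144) and Hspb8 (17.7 ± 11.3 against 215 ± 19.9) and their partner Bag3 (973 ± 207 against 2889 ± 159). Hspa1a was higher in macrophages (2245 ± 401 against 687 ± 359.6), with a near-identical copy in Hspa1b. Hspa8, higher in macrophages by 0.49 ± 0.18, was called without the block only (adjusted p 0.0476 in limma, 0.0556 with it), and its call was lost without macrophage replicate 1 or 2 or endothelial replicate 1 or 2 (limma adjusted p 0.12 to 0.148). Of 20 apoptosis genes, 14 were higher in macrophages. Pmaip1, the BH3 protein NOXA, had signals of 9094, 11239.6 and 9492 in the macrophage libraries and 132, 97.7 and 84.4 in the endothelial libraries. Bcl2a1a, Bcl2a1b and Bcl2a1d, near-identical survival genes whose reads cannot be told apart, were 1992 to 2849.6 in macrophages and at or next to the floor in endothelial cells. Fas, the death receptor (393 ± 259 against 3221 ± 336), Bcl2 (2326 ± 206 against 3016 ± 208) and Bik (1 ± 0 against 47.1 ± 12.4) were among those higher in endothelial cells. The call of Bcl2 was lost without macrophage replicate 1 or 2 or endothelial replicate 2 or 3 (limma adjusted p 0.0531 to 0.0687).

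Related genes, one known from blood cells and one from other tissues, were set side by side in 36 pairs, 34 of them listed as paralogs in the deposited table. The blood cell member was higher in macrophages in 35 of 36, and the other member in endothelial cells in 23, so 23 pairs were called in opposite directions. Nckap1l, a subunit of the WAVE complex that drives actin branching, had signals of 18527, 19521 and 16049.6 in the macrophage libraries and 8.2, 12.8 and 15.6 in the endothelial libraries. Its relative Nckap1 had 116, 233 and 421 in the macrophage libraries and 12529.5, 14362 and 11851 in the endothelial libraries. The receptor phosphatases Ptprc, which encodes CD45, and Ptprb, which encodes VE-PTP, parted by 9.72 ± 0.25 and -8.03 ± 0.21. The kindlins, which activate integrins, parted in Fermt3 (7.63 ± 0.67) and Fermt2 (-5.97 ± 0.33).

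The switch was not uniform. In 5 pairs both members were higher in macrophages, among them Fgr and Src (6.93 ± 0.27 and 3.45 ± 0.44) and Arhgdib and Arhgdia (3.76 ± 0.19 and 0.36 ± 0.09). In 7 pairs the other member was not called, as in Coro1a and Coro1c (8.45 ± 0.37 and 0.27 ± 0.13) or Prkcb and Prkca (7.79 ± 0.25 and 0.37 ± 0.21). The 1 blood cell member not higher in macrophages was Capg, an actin capping protein, with signals of 960.0, 759 and 309 in the macrophage libraries and 1337, 819 and 654 in the endothelial libraries. Its relative Gsn, gelsolin, was higher in macrophages at 1389, 1353 and 616 in the macrophage libraries and 81.5, 54.8 and 174 in the endothelial libraries. Because the pairs were chosen for the known expression of 1 member, the count describes them and tests nothing.

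**Figure D4:**
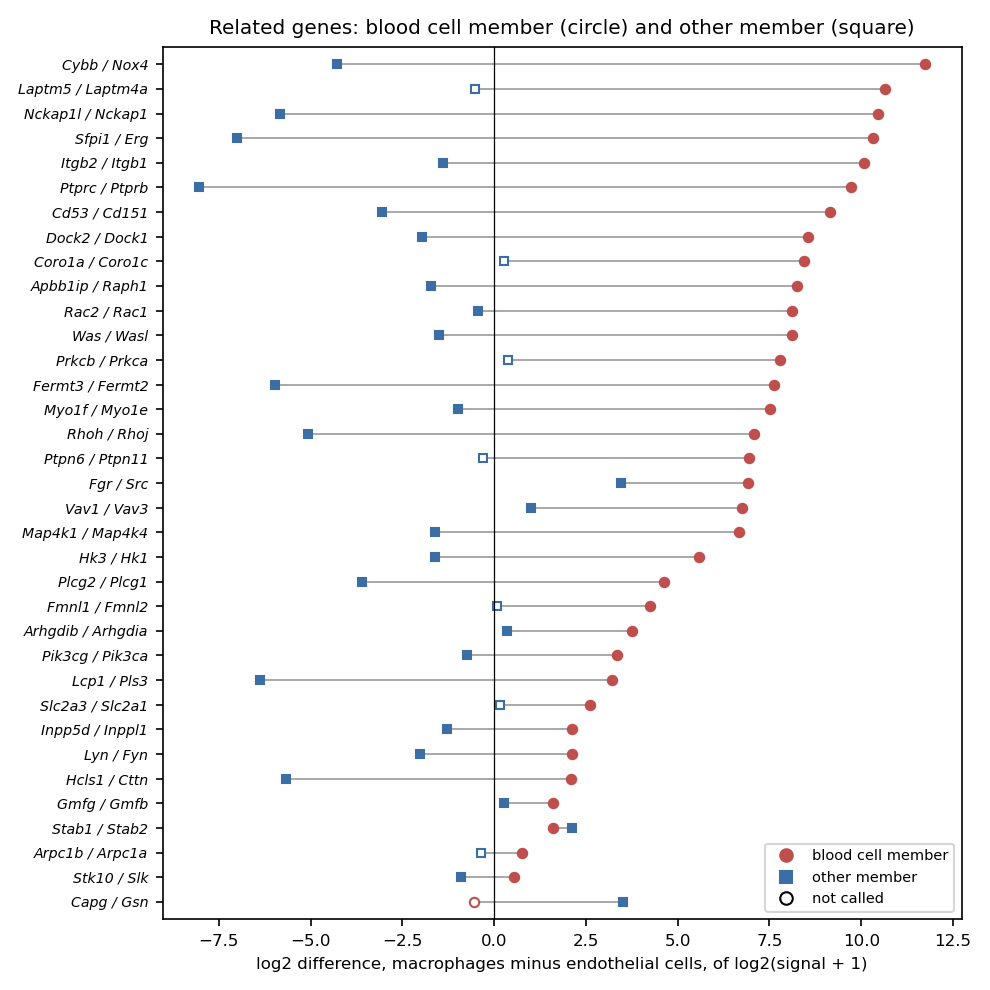
Log2 difference of log2(signal + 1), macrophages minus endothelial cells (horizontal), for 35 of the 36 pairs of related genes; circles are the blood cell member, squares the other member, open symbols genes not called. Circles lie right of 0 in all pairs but Capg and Gsn, and most squares are called on the endothelial side.

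Ligands and receptors were read in 62 known pairs, of 54 ligands and 54 receptors, some of them in several pairs. Both genes were higher in macrophages in 18 pairs and both in endothelial cells in 15. In 11 pairs the ligand was higher in macrophages and the receptor in endothelial cells, and in 8 the reverse. In the other 10, 1 or both genes were not called or not tested. Expression in a fraction shows RNA of that gene, not a signal between the cells.

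From macrophage ligand to endothelial receptor, Osm, oncostatin M, had signals of 1208, 1328 and 1044 in macrophages and was listed at the floor in all endothelial libraries, against Osmr with the opposite order, given above. Il1b and Il1r1, the signalling receptor of interleukin 1, differed by 11.99 ± 0.34 and -3.01 ± 0.36. Il1r1 had signals of 290.2, 268 and 725 in the macrophage libraries and 2593, 3508 and 3259.7 in the endothelial libraries. Hgf and its receptor Met differed by 6.51 ± 0.47 and -1.38 ± 0.23, Lif and Lifr by 5.30 ± 0.66 and -1.86 ± 0.10, and Sema4d and Plxnb1 by 8.18 ± 0.26 and -1.70 ± 0.45. Interleukin 1 beta has its decoy receptor Il1r2 on the macrophage side, as given above, so its 2 receptors lay on opposite sides.

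From endothelial ligand to macrophage receptor, Cx3cl1 and Cx3cr1 differed by -3.49 ± 0.36 and 10.06 ± 0.95, Il34 and Csf1r by -2.09 ± 0.42 and 9.44 ± 0.42, and Selp and its ligand Selplg by -4.00 ± 0.61 and 7.70 ± 0.44. Cd200, which restrains myeloid cells, had signals of 104, 82.8 and 359 in the macrophage libraries and 11767, 10414 and 11206 in the endothelial libraries, and its receptor Cd200r1 of 827, 1035 and 644 in the macrophage libraries and 1, 4.52 and 1 in the endothelial libraries. Jam2 and Itga4 differed by -7.08 ± 0.16 and 5.97 ± 0.19. Cxcl12 had 1 receptor on each side, the signalling Cxcr4 at 0.86 ± 0.09 and the scavenging Cxcr7 at -5.96 ± 0.24. Within the endothelial fraction lay Apln and Aplnr (-3.99 ± 0.19 and -7.34 ± 0.22), Efnb2 and Ephb4 (-6.19 ± 0.12 and -6.72 ± 0.67) and Angpt2 and Tek (-3.46 ± 0.16 and -7.28 ± 0.35). The pairs of Igf1 and Igf1r (1294 ± 375 against 1601 ± 220.1 for the receptor) and of Tnf with Tnfrsf1a (1718 ± 383 against 2525 ± 591) had receptors that were not called. With the block, Tnfrsf1a was called.

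**Figure D5:**
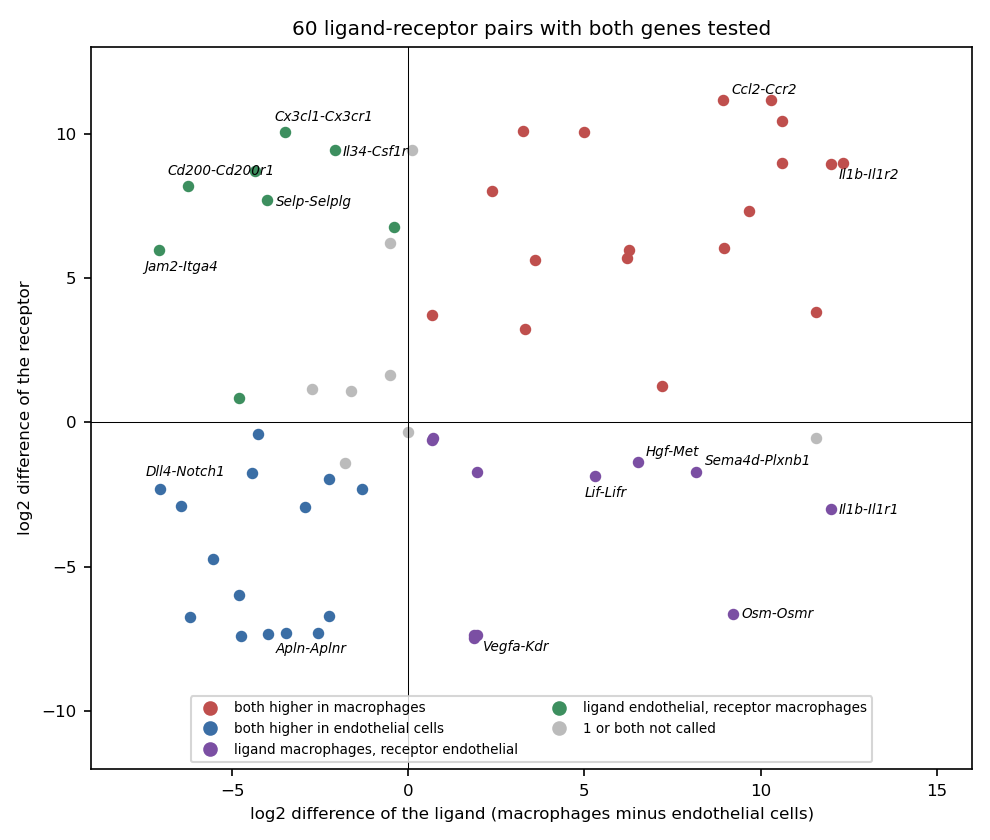
Log2 difference of the ligand (horizontal) and of its receptor (vertical), macrophages minus endothelial cells, for the pairs with both genes tested; colours give the call pattern. Osm with Osmr and Il1b with Il1r1 lie lower right, Cx3cl1 with Cx3cr1 and Cd200 with Cd200r1 upper left.

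A set of genes had close levels in both cell types. In 909 tested genes the 95% interval of the log2 difference lay within 0.5 of 0. Those with the highest mean signal included Srrm2 and Son, which hold splicing speckles together, and Hsp90ab1, a chaperone. Srrm2 had signals of 26259.7, 30178 and 25845 in the macrophage libraries and 25885, 31015 and 29344 in the endothelial libraries, Hsp90ab1 of 20583, 20289 and 16911 in the macrophage libraries and 19768, 18462 and 19816 in the endothelial libraries and Son of 16424, 18134 and 18595 in the macrophage libraries and 16248, 17620.4 and 18427 in the endothelial libraries. Their log2 differences were -0.07 ± 0.11, -0.01 ± 0.10 and 0.02 ± 0.09. Ahnak, a giant scaffold protein, and Rbm39, a splicing factor, differed by -0.16 ± 0.14 and 0.15 ± 0.10.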

How the data were processed

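RNA was measured in 3 libraries of sorted macrophages and 3 of sorted endothelial cells. Per the labels' protocols, total RNA was amplified with a NuGEN Ovation kit before library preparation and sequencing on an Illumina instrument. The deposited table holds a signal per gene, normalized by the authors (how, no source used here says), and the depth in reads is unknown. The submitters' processing notes list TopHat2 2.0 and mm9, with no role for either. No source used here names the gene counter or its use of strand, so reads of overlapping genes on opposite strands may not be told apart. Values above the floor of 1 fell on a grid whose spacing differed by library (whole multiples for 99.8 to 100% of low values, within 0.1 step). Only 36.6 to 53.1% were multiples of 50 steps, so whole reads were not recovered and no count model was used.

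The 22793 entries gave 22711 genes after 25 symbols stored as dates were restored by gene ID and 1 entry was kept for each of 76 repeated symbols. Log2(signal + 1) was fitted with limma 3.58.1 (R 4.3.3, variance trend) on the 6 libraries, after a filter at the 40th percentile of values above 0 (15.5) in at least 3 libraries. P-values were adjusted by Benjamini-Hochberg over all 13726 tested genes with a threshold of 0.05. The script was tested on simulated data. Promoter windows were matched by symbol for 10678 tested genes, and the first window listed for a gene was used.

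Deviations of same-numbered macrophage and endothelial libraries from their group means correlated at 0.226, 0.409 and 0.361 over genes for replicates 1, 2 and 3. All exceed 0.1, so the numbers are taken to pair the samples in an alternative fit with a block, on this evidence from the data alone. The labels do not say what a replicate number shares. The genes are not independent, and they include acinar and pericyte genes, whose sums moved with the replicate number. The main fit leaves the pairing out. The block is an alternative, and the reported values are without it unless said.

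The members and lists were chosen with earlier results of these data known. Named by rule were the 20 largest differences per side with groups that do not overlap, a mean of at least 716 in the higher group and the lower group not all at the floor, up to 4 members per side of each list or set of pairs, all members where a side held 5 or fewer, members that were not called, Itgam and Pecam1, and 10 genes of close levels. The text gives a part of these. Outside the rule, after values were seen, it also names Adamts9, Angpt2, Apln, Arhgdia, Arhgdib, Axl, C3, C5ar1, Cd200, Cd200r1, Col4a1, Col4a2, Coro1a, Efnb2, Emr1, Fermt2, Fermt3, Fgr, Figf, Gcg, Gsn, H2-Aa, H2-Ab1, Hspa8, Il1r1, Ins2, Itga4, Lif, Lifr, Mertk, Met, Nckap1, Nos2, Notch1, Notch4, Nrp1, Osm, Plxnb1, Prkcb, Ptprc, Sele, Selplg, Src, Tgfb1, Tgfb3, Trem2 and Vwf. Some genes are not reported here. Alternatives are described in the closing section.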

Additional observations from a re-analysis of the deposited data

How the results depend on the processing

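The number of genes called was 8117, and 7472 with no filter, 6470 with a stricter filter (signal of at least 217), 8259 with a pseudocount of 16, 8104 with the libraries quantile normalized, 8049 when they were rescaled by median ratios and 6228 with all 4 groups in 1 fit. With the replicate number as a block it was 8676 (4049 higher in macrophages, 4627 in endothelial cells). Leaving out 1 library gave 6907 to 8820. The split gave 3355 to 4165 higher in macrophages and 3552 to 4655 higher in endothelial cells. Leaving out 1 replicate number in both groups, an alternative chosen after seeing the data, gave 6072 to 8649. A required log2 difference of 1 left 3831 genes, 1962 higher in macrophages and 1869 in endothelial cells, by the construction of that test.

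Of 304 named genes tested, 252 were called and 227 of those kept call and direction in every alternative other than the required log2 difference, which ended 32 calls. Of the called genes 0 changed sign. The replicate block changed no call of a named gene beyond those printed with both values and Hspa1b (limma adjusted p 0.0595 without and 0.00883 with it) and Tnfrsf1a (limma adjusted p 0.0612 without and 0.00176 with it). Calls lost without 1 library are given in the text. Beside them, those of Angptl4, Arhgdia, Cdc20, Fabp5, Gcg, Il34, Mcm3, Plxnb1, Serping1 and Tgfb3 were lost without a replicate number in both groups. All 4 groups in 1 fit ended the calls of Arhgdia, Bcl2, Cd46, Cenpf, Cox4i1, Cr1l, Hspa8, Lfng, Mcm3, Ndufs1 and Tgfb1. Median ratio rescaling ended those of Bcl2 and Ndufs1. With no filter on low values 11 were lost, those of C1s, Cox4i1, Cr1l, Darc, Gcg, Hspa8, Lyve1, Mcm5, Ncr1, Rgs5 and Serping1. Several list counts moved by more than 1.5 times. MHC class I genes higher in macrophages went from 11 to 3 with the required log2 difference and 6 with all groups, apoptosis genes from 14 to 5 and 6, and chaperones from 6 to 1 and 3. Mitosis and replication genes higher in macrophages went from 3 to 5 without endothelial replicate 1 and 6 after median ratio rescaling, and complement genes higher in endothelial cells from 5 to 2 with no filter. With the stricter filter fewer members were tested, and the calls fell from 8 to 2 for neutrophil, 9 to 4 for beta cell and 13 to 8 for alternative activation genes. For the macrophage identity list all 20 calls, and for the endothelial identity list all 23, held whichever single library was left out.

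Genes that were not called changed the sign of their log2 difference in some settings, and the cause was not tested. With quantile normalization it was -0.067 in Angptl2, -0.0354 in Ctsk, 0.0578 in Hsp90ab1, 0.038 in Igf1 and -0.20 in Itga2b. After median ratio rescaling it was 0.0665 in Hsp90ab1, 0.0607 in Igf1, 0.00218 in Mki67, 0.0447 in Nox1, 0.0106 in Srrm2 and 0.0079 in Tap2, and with a pseudocount of 16 0.0221 in F3 and 0.0156 in Nox1. With 1 library left out it ranged from -0.59 to 0.64 in Angptl2, -0.93 to 4.04 in Cpb1, -0.31 to 0.47 in Csf1, -0.27 to 0.35 in Ctsk, -0.53 to 0.0449 in Ddah1, -0.72 to 0.77 in F3, -0.083 to 0.0968 in Fli1, -0.19 to 0.25 in Hhex, -0.0621 to 0.0796 in Hsp90ab1, -0.15 to 0.0633 in Igf1, -0.11 to 0.25 in Itga2b, -0.23 to 0.0327 in Mki67, -0.40 to 0.11 in Mmp19, -0.47 to 0.35 in Nox1, -0.0617 to 0.67 in Rsad2, -0.0264 to 0.077 in Son, -0.15 to 0.0383 in Tap2 and -0.33 to 0.0275 in Top2a. Without replicate 1 in both groups it was -0.13 in Angptl2, -0.0524 in Fli1, -0.0626 in Hhex, 0.0014 in Lta4h and 0.14 in Nox1, without replicate 2 in both -0.21 in Hhex, 0.049 in Igf1 and 0.0388 in Mmp19, and without replicate 3 in both -0.28 in Csf1, -0.33 in Ctsk, 0.00805 in Ddah1, 0.72 in F3, 0.0972 in Hsp90ab1, 0.0465 in Igf1, 0.0774 in Mki67, 0.0497 in Mmp19, 0.41 in Nox1 and 0.0119 in Top2a.

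The depth in reads is unknown, and the precision of a single library was not measured. Log2 differences of genes near the floor depend on the added 1 and are understated. Sorted cells without Dox, other sorted cell types and protein levels are not analysed here.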
